A study of Mus musculus with 9 samples.

Results

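The comparison described here set RAW264.7 cells cultured on a membrane labelled BMC against blank control cells, both without ultrasound, in every named gene of the deposited table. It used 3 BMC and 3 control libraries and all 54052 lines of the table that carry a gene name, of which 21962 had at least 1 count in these 6 libraries and 12030 passed a filter of a mean of 0.5 FPKM over the 9 libraries of the series. RAW264.7 is a mouse macrophage-like cell line, and the genotype of all groups was labelled wild type. The series title names piezoelectric membranes and ultrasound, but the labels do not say what BMC stands for. The third group, BMC+LIPUS, was cultured on the same membrane with low-intensity pulsed ultrasound. Its 3 libraries took part in the estimate of spread and are given beside some members. All groups are cultures of 1 cell line, and separate cultures behind a group's 3 libraries are not named in the labels, so the p-values rest on the spread among libraries, which may be purely technical.

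Macrophages sense microbial products, complement fragments and lipid mediators through surface receptors whose signals reach the transcription factors NF-kB, AP-1 and EGR, and these switch on early response genes within a short time. In cycling cells, E2F factors turn on the genes for DNA synthesis and repair as cells enter S phase, and a later wave of genes serves mitosis. Macrophages are also rich in lysosomes, whose genes answer to the MiT family of transcription factors, and they carry osmolyte carriers that help to set cell volume.

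The 6 libraries held 12831418 to 16574453 counts over named genes, and mitochondrial genes took 3.706% to 3.747% of counts in the controls and 3.729%, 4.045% and 4.009% in BMC. Levels are in FPKM, fragments counted relative to gene length and library depth, and fold changes are fitted to the counts by edgeR. Of 12 macrophage markers, 11 were tested and Mrc1 was below the filter. Their summed level was 7200 to 8020 FPKM in the controls and 7850 to 8650 FPKM in BMC, with Lyz2, Spi1 and Cd14 called higher and Ptprc and Cd68 called lower. All 5 epithelial markers were at 0. The 8 fibroblast and stromal markers summed to 0.57 to 0.65 FPKM in the controls and 0.91 to 1.45 FPKM in BMC, with 5 of them at 0, and Pdgfrb, the only member tested, was called higher. The 5 dendritic cell markers summed to 0.99 to 1.29 FPKM in the controls and 0.51 to 0.89 FPKM in BMC, and Siglech, the only member tested, was called lower. Markers of T and B lymphocytes, osteoblasts, neutrophils and endothelium each summed to at most 1.54 FPKM in any of the 6 libraries. The part of these markers and of the mitochondrial share in the results below was not tested. In RNA from whole cultures, fewer cells in a state and less of a transcript per cell cannot be told apart.

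Between the membrane and control libraries, many transcripts differed by a small amount and few by a large one. At an edgeR adjusted p under 0.05, 4314 genes were called, which is 35.9% of those tested, 2062 of them higher in BMC (17.1%) and 2252 lower (18.7%). The median log2 change was 0.35 among genes called higher and -0.47 among genes called lower, against 0.01 over all tested genes, and 3060 of the calls were under 1.5-fold. Changes of at least 2-fold were called in 423 genes (3.52%), 195 higher and 228 lower, and changes of at least 4-fold in 41 higher and 9 lower. The FPKM ranges of the groups did not overlap in 5588 genes (46.5%), among them 4017 of the called genes. With library totals in place of TMM factors, which correct for composition, the split was 1457 higher and 2761 lower, so that 34.5% of calls were higher against 47.8%, while the median of all genes moved only to -0.052. With limma on log2(FPKM + 1) the split was 1330 higher and 2545 lower.

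Rises and falls were spread differently over levels of expression, with TMM factors as above. Of the genes at a mean of 50 FPKM or more over both groups, 29.7% were called higher and 11.2% lower. Between 2 and 10 FPKM the shares were 13.5% higher and 23.7% lower, and between 10 and 50 FPKM they were 25% and 18.8%. Protein-coding genes were called higher in 19.5% and lower in 21.8% of 9870 cases, pseudogenes in 4.99% and 2.04% of 881, and long noncoding RNAs in 12.8% and 11.6% of 345.

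**Figure D1:**
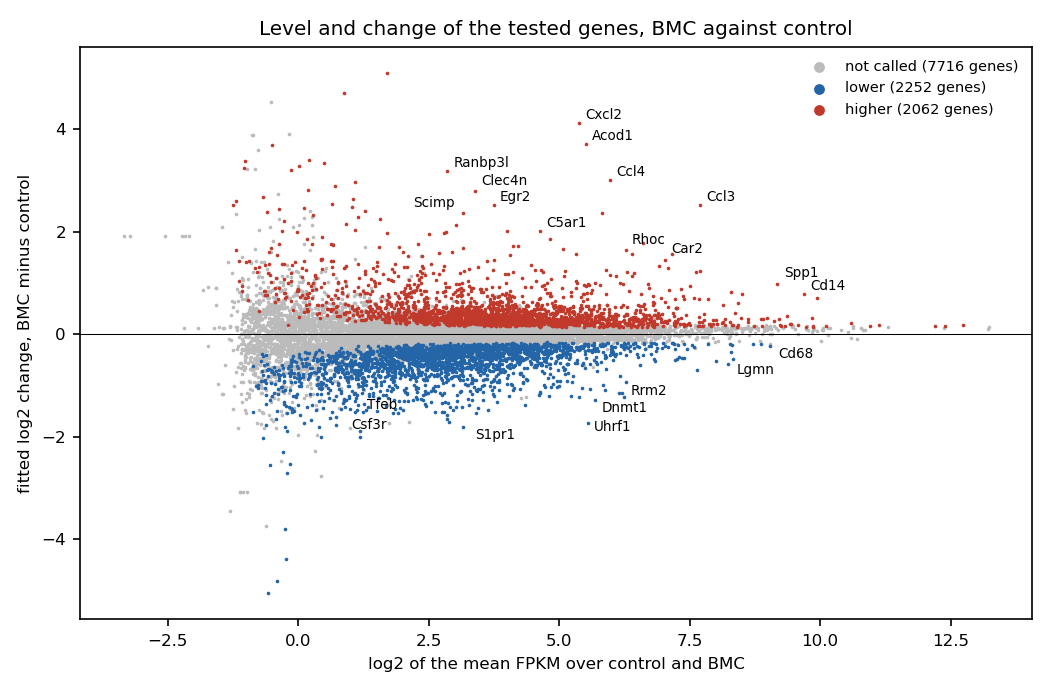
Each point is 1 of 12030 tested genes, with the log2 of its mean FPKM over the 6 control and BMC libraries on the x axis and the fitted log2 change, BMC minus control, on the y axis. Red and blue points are the 2062 genes called higher and the 2252 called lower, and grey points the genes not called. Red points outnumber blue ones toward the right, where 29.7% of genes at 50 FPKM or more were called higher and 11.2% lower, and some named genes are labelled.

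Among the largest rises, apart from chemokines, were those of signalling proteins and receptors at the macrophage surface. Scimp, a membrane adaptor of Toll-like receptor signalling, was at 2.59, 3.13 and 3.38 FPKM in the controls and at 14.1, 16.3 and 14.3 FPKM in BMC, 5.12-fold higher (edgeR adjusted p = 9.19e-09). The lowest BMC library thus lay well above the highest control. C5ar1, the receptor for complement fragment C5a, was at 8.73, 9.22 and 12.8 FPKM in the controls and at 42.0, 41.7 and 35.0 FPKM in BMC, 4.05-fold higher (edgeR adjusted p = 3.64e-09). Rasgef1b, a Ras-family exchange factor, rose 4.37-fold from 3.15 ± 0.214 to 13.2 ± 2.39 FPKM (SD, n = 3; edgeR adjusted p = 5.90e-09). Cd80, a costimulatory ligand for T cells, rose 3.93-fold to 5.16 ± 0.386 FPKM. Spink5, a serine protease inhibitor best known from skin, rose 4.02-fold to 25.5 ± 2.64 FPKM, and Gfod1, of a family related to sugar oxidoreductases, rose 4.00-fold to 11.3 ± 2.84 FPKM. Groups were apart in each of these genes.

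Ier3, an early response gene tied to cell survival, had a wider spread on the membrane. Its controls were at 18.3, 15.7 and 23.4 FPKM and its BMC libraries at 63.4, 83.6 and 133 FPKM, 5.13-fold higher (edgeR adjusted p = 9.10e-06). Clec4n, a C-type lectin, spread the other way over the same libraries, with 2.66, 3.06 and 2.42 FPKM in the controls and 27, 17.7 and 9.71 FPKM in BMC, 6.95-fold higher. The library labelled BMC replicate 3 was thus the highest for Ier3 and the lowest for Clec4n, and neither group range reached the other.

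Promoters are shown for 3 genes among the 14 largest rises, since NF-kB drives many early response genes. These 3 were all that carried an NF-kB type motif among the 9 whose windows were read singly. Windows on 1 chromosome were left out of that reading but not of the shares below. The motif searched was GGAATTTCC or GGACTTTCC on either strand, in RefSeq windows of 300 bases (250 before to 50 after the annotated start, build GRCm38.p6), which were at hand for 8376 of the 12030 tested genes (10635 windows, with several for 1693 genes). A gene counts as holding a motif if any of its windows does. It was found in the windows of Cxcl2, 96 bases before the start, of Acod1, 85 bases before, and of Ier3, 139 bases before. The 250 bases before each start are printed 5′ to 3′ on the gene's own strand, all + here, with the match in capitals; they lie at chr5:90903649-90903898, chr14:103046762-103047011 and chr17:35821463-35821712 in that order.
Cxcl2: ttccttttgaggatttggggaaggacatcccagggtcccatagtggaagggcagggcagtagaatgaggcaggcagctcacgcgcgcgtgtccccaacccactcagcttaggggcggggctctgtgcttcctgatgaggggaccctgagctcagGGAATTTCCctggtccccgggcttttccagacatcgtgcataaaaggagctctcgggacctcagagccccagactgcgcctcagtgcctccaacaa
Acod1: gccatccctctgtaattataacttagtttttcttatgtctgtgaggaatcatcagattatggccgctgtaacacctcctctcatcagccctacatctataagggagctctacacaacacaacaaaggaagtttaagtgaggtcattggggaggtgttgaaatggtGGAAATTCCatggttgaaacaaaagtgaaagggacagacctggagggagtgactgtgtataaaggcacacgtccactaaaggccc
Ier3: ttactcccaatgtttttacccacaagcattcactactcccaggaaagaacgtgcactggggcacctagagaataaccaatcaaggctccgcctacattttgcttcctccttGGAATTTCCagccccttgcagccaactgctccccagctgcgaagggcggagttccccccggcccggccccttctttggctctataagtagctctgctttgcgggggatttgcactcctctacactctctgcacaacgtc
The motif was held by 80 of the 8376 genes with a window (0.955%), by 6 of 120 such genes called at least 2-fold higher (5.0%) and by 1 of 168 called at least 2-fold lower (0.595%). The AP-1 type motif TGACTCA was held by 4.13%, by 12.5% (15 genes) and by 2.98% (5 genes) of the same sets, and the ATF4 type motif TGATGCAAT by 10, 1 and 0 genes. The E-box CACGTG was held by 12.2% of all these genes, 9.17% of those higher and 9.52% of those lower. A match describes letters in a window and is no evidence of binding, and where no match was found, only these letters were missing from this window.

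Among the largest falls, apart from replication genes, were receptors and signalling proteins of myeloid cells. Csf3r, the receptor for granulocyte colony-stimulating factor, was at 4.86, 5.43 and 5.60 FPKM in the controls and at 2, 1.9 and 1.34 FPKM in BMC, 2.89-fold lower (edgeR adjusted p = 7.93e-07). Fgd2, an exchange factor for Cdc42, was at 9.37, 9.50 and 8.69 FPKM in the controls and at 4.19, 2.66 and 2.42 FPKM in BMC, 2.85-fold lower (edgeR adjusted p = 2.45e-06). All BMC libraries of both genes lay below all controls. Klf4, a transcription factor of monocyte differentiation, fell 2.84-fold from 10.4 ± 1.43 to 3.50 ± 0.842 FPKM. Impa2, an inositol monophosphatase, fell 2.77-fold, and Fndc10, a gene of little known function, 2.92-fold. Gpr34, a lysophosphatidylserine receptor, was chosen after its values were seen: it had 26, 84 and 31 counts in the controls and 1, 3 and 0 counts in BMC (edgeR adjusted p = 6.06e-05). No gene had 0 counts in all libraries of 1 group and at least 10 in each library of the other. At a minimum of 5 counts there was 1, Plat, the gene for tissue plasminogen activator, with 0 counts in each control and 10, 8 and 30 counts in BMC.

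**Figure D2:**
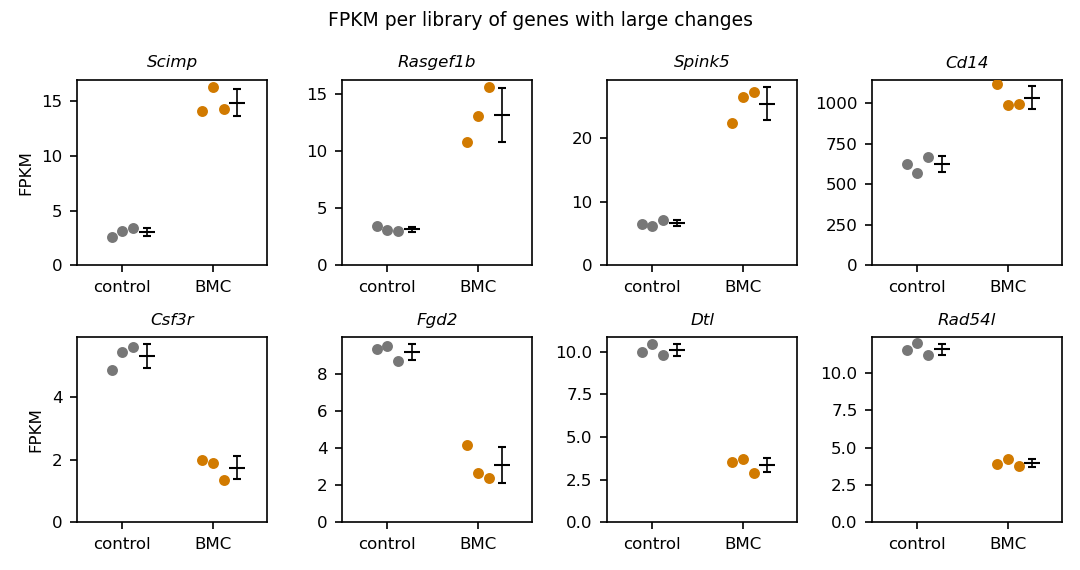
FPKM on the y axis of each panel, from 0, for 8 genes in the 3 control and 3 BMC libraries; points are libraries, and the black bar with whiskers is the mean ± SD of the 3. Scimp, Rasgef1b, Spink5 and Cd14 lie higher in every BMC library than in every control, and Csf3r, Fgd2, Dtl and Rad54l lie lower.

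Measured as a difference in FPKM, several of the largest rises were in abundant surface and secreted proteins. Cd14, the coreceptor for bacterial lipopolysaccharide, was at 627, 572 and 669 FPKM in the controls and at 1116, 992 and 993 FPKM in BMC, 1.73-fold higher (edgeR adjusted p = 1.30e-07). Ifitm3, a membrane protein that restricts virus entry, rose 1.64-fold from 766 ± 60.6 FPKM, and Spp1, the secreted matrix protein osteopontin, 1.99-fold from 400 ± 18.3 to 762 ± 44.5 FPKM. Among the largest falls in FPKM were lysosomal proteins. Lgmn, the protease legumain, was at 365, 357 and 380 FPKM in the controls and at 253, 230 and 223 FPKM in BMC, 1.49-fold lower (edgeR adjusted p = 1.62e-06). Psap, the precursor of the saposins, fell 1.41-fold from 384 ± 3.56 to 261 ± 29.1 FPKM, and Cd68, a lysosomal membrane glycoprotein, 1.16-fold.

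Genes were then read by function, in 61 lists with 1541 distinct genes. Each count is to be set against the 17.1% higher and 18.7% lower over all tested genes. These shares differ with level, from 13.5% higher and 23.7% lower between 2 and 10 FPKM to 29.7% and 11.2% at 50 FPKM or more. The lists were not matched for level, so part of an excess in either direction may follow from it, which was not tested. Of the C-type lectin receptors, which bind microbial and dead-cell glycans, 5 of 10 tested rose and 1 fell, with a median log2 change of 0.33. Clec4e, also known as Mincle, was at 44.7, 41.7 and 45.3 FPKM in the controls and at 130, 126 and 118 FPKM in BMC, 2.97-fold higher (edgeR adjusted p = 2.74e-11). Clec4d rose 1.81-fold and Clec5a 1.88-fold, and Clec4a3, another family member, fell 2.45-fold from 14.4 ± 0.426 to 5.61 ± 1.18 FPKM. Without BMC replicate 1, 2 of these receptors were lower. Over the Toll-like receptors and their adaptors, 8 of 22 rose and 6 fell. The receptors Tlr2 and Tlr4, the adaptor Myd88 and the kinase Irak2 (2.31-fold) were among those that rose, and Tlr9, an endosomal DNA sensor, fell 2.16-fold.

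Receptors for chemoattractants and lipid mediators moved in both directions, with 6 of 17 higher and 5 lower. Hcar2, the niacin receptor, was at 0.507 ± 0.306 FPKM in the controls and 3.74 ± 0.189 FPKM in BMC, 7.89-fold higher (edgeR adjusted p = 2.38e-06), and Ptgir, the prostacyclin receptor, rose 1.57-fold. The sphingosine-1-phosphate receptor S1pr2 fell 1.65-fold, the lysophosphatidic acid receptor Lpar5 2.28-fold, and S1pr1 3.48-fold from 14 FPKM. Of the interleukin and colony-stimulating factor receptors, 5 of 21 rose and 10 fell, with a median log2 change of -0.24. Il10ra, which binds interleukin-10, fell 1.84-fold from 27.1 ± 1.04 to 14.1 ± 0.985 FPKM (edgeR adjusted p = 1.36e-07), and the interferon receptor chain Ifnar2 and the shared chain Il6st also fell. Il1rl1, the receptor for interleukin-33, rose 1.64-fold. Csf1r, the lineage's growth factor receptor, was not called at 365 ± 11.8 FPKM in the controls and 360 ± 9 FPKM in BMC.

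The Fc receptor, TREM and Siglec families were also split, with 7 of 18 higher and 6 lower. Trem1, which amplifies Toll-like receptor signals, rose 4.03-fold, although only to 1.28 ± 0.0557 FPKM, and the inhibitory Fc receptor Fcgr2b rose 2.07-fold. Trem2, a lipid-binding receptor of the same family, fell 1.5-fold from 58.6 ± 3.98 to 37.5 ± 4.80 FPKM, and Cd33, an inhibitory sialic acid receptor, 1.79-fold. Without control replicate 2, BMC replicate 2 or BMC replicate 3, 3 members of these families were lower in place of 6. Among scavenger and efferocytosis receptors, which take up lipoproteins and dying cells, 0 of 14 rose and 6 fell by edgeR, among them Lrp1, 1.48-fold, and Scarb1, 1.35-fold. In the controls the list summed to 815, 878 and 827 FPKM. In BMC it summed to 868, 851 and 789 FPKM, and the groups overlapped. Leaving out BMC replicate 1 or BMC replicate 3 put 1 member of that list higher.

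Secreted growth factors and receptors of the TNF family were called in both directions. Of 10 tested growth factors 5 rose and 3 fell, and 1 fell without control replicate 1, control replicate 3 or BMC replicate 2. Pdgfb, a mitogen for mesenchymal cells, rose 2.14-fold from 12.9 ± 1.02 to 26.4 ± 4.24 FPKM, and Vegfa, which drives vessel growth, 1.78-fold. Igf1, a growth factor made by tissue macrophages, fell 1.61-fold from 43.1 ± 2.78 to 25.6 ± 5.23 FPKM. In the TNF superfamily 3 of 14 rose and 2 fell, a called share of 35.7% against 35.9% over all tested genes. The receptors of TNF went opposite ways, with Tnfrsf1a 1.3-fold higher and Tnfrsf1b 1.41-fold lower, and Tnfrsf11a, the RANK receptor that starts osteoclast formation, fell 1.36-fold from 22 ± 1.7 to 15.5 ± 2.7 FPKM. Of 6 chemokine receptors 2 rose and 1 fell, with 1 rise without control replicate 1 or 3 or BMC replicate 1 or 3, and 2 falls without BMC replicate 1. Ccrl2, a receptor that binds chemerin, rose 3.72-fold to 2.14 ± 0.405 FPKM, and the fractalkine receptor Cx3cr1 fell 1.2-fold from 131 FPKM. Of 5 purinergic genes 2 fell, among them P2rx7, the channel opened by extracellular ATP, 1.8-fold lower, and 1 rose, whose call was lost without control replicate 2 or 3 or BMC replicate 1 or 2.

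Many, but not all, transcription factors of the early response rose. In the list of EGR, NR4A, AP-1 and MAF factors 11 of 18 rose and 2 fell, with 5 not called and a median log2 change of 0.53. Egr2 was at 3.15, 3.64 and 5.54 FPKM in the controls and at 24.1, 23.1 and 20.8 FPKM in BMC, 5.79-fold higher (edgeR adjusted p = 2.03e-09). Egr1 rose 2.58-fold, Maff 2.53-fold and Junb 1.49-fold to 107 ± 3.19 FPKM. Fos fell 1.95-fold, from 39.6 ± 2.59 to 19.4 ± 4.46 FPKM (edgeR adjusted p = 4.38e-05). Of the DUSP, SPRY and SPRED genes, which restrain MAP kinases, 8 of 15 rose and 3 fell. Dusp16 rose 2.37-fold and Spred1 rose from 76.7 to 102 FPKM.

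Signalling below the receptors was called in both directions. Of 29 genes of G proteins and cyclic AMP 11 rose and 7 fell, with 2 or 3 falls without control replicate 1 or 2 or BMC replicate 2 or 3. Rgs16, which shortens G protein signals, was at 0.15, 0.13 and 0.31 FPKM in the controls and at 2.17, 1.45 and 1.83 FPKM in BMC, 9.68-fold higher (edgeR adjusted p = 4.32e-06). The adenylyl cyclase Adcy7 rose 1.71-fold and the phosphodiesterase Pde4b 1.53-fold. Of 27 phosphoinositide and protein kinase C genes 6 rose and 12 fell; the kinase subunits Pik3r1 and Pik3cd fell 1.33-fold and 1.29-fold, and Sgk1, a kinase induced by hormones and salt, rose 2.45-fold to 1.47 ± 0.135 FPKM. In TGF-beta and BMP signalling 3 of 22 rose and 6 fell, with 0 rises by edgeR without control replicate 2 or 3 or BMC replicate 2 or 3. Tgfbr1, the type I receptor, fell 1.86-fold from 27.7 ± 4.42 to 14.3 ± 1.32 FPKM, and the inhibitory Smad6 2.3-fold. In the Notch and Wnt list 3 of 17 rose and 3 fell, a called share of 35.3% that matches the background of 35.9%, with Rbpj, the DNA-binding partner of Notch, 2.01-fold higher and the receptor Notch2 1.42-fold lower. Clock genes rose in 7 and fell in 4 of 15 cases, with 4 rises without BMC replicate 3 and 2 falls without BMC replicate 2. Nfil3, a repressor of clock output, rose 2.71-fold from 6.79 ± 0.591 to 17.6 ± 1.23 FPKM (SD, n = 3), Per1 rose 1.96-fold, and the output factor Dbp fell 2.09-fold.

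Factors of the macrophage lineage were called in 14 of 24 cases, 9 higher and 5 lower. Ets2 was at 9.29, 7.37 and 10.2 FPKM in the controls and at 23.1, 28.8 and 33.1 FPKM in BMC, 3.31-fold higher (edgeR adjusted p = 1.53e-07). Id2, an inhibitor of basic helix-loop-helix factors, fell 2.52-fold and the retinoid receptor Rxra 1.88-fold. In the osteoclast list, which matters because RAW264.7 cells can be driven to that fate, 6 of 15 rose and 4 fell. Car2, the carbonic anhydrase that acidifies the resorption pit, rose 2.76-fold from 72 ± 15.3 to 189 ± 45.9 FPKM, and Acp5, the tartrate-resistant phosphatase, 2.34-fold to 3.87 FPKM. The lysosomal chloride exchanger Clcn7 and the proton pump subunit Tcirg1 fell, and Dcstamp, needed for cell fusion, was not called at 5.64 ± 0.615 and 5.60 ± 1.9 FPKM. Without control replicate 2, 3 members of this list were called higher in place of 6, and over the other scalings 3 to 5.

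Among genes of adhesion and shape, actin filament genes rose more often than they fell. Of the actin filament genes 14 of 31 rose and 3 fell, with a median log2 change of 0.13. Actg1, a cytoplasmic actin, rose 1.64-fold to 235 ± 21.5 FPKM (SD, n = 3). The 3 lower members were Myl12b, Tagln2 and Rdx, and 0 or 1 were lower without control replicate 1, 2 or 3 or without BMC replicate 2 or 3. Rhoc, a small GTPase of the cytoskeleton, was at 37.6, 37.6 and 42.0 FPKM in the controls and at 131, 112 and 105 FPKM in BMC, 3.11-fold higher (edgeR adjusted p = 1.02e-09), and Rac2, of phagocytes, rose 1.45-fold.

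Adhesion receptors themselves were called in both directions. Itga4, an integrin chain that binds fibronectin and VCAM-1, rose 1.61-fold from 161 ± 22 to 247 ± 40.0 FPKM, and Itgb5 fell 1.46-fold. In all, 3 of 11 tested integrins rose and 1 fell, a called share of 36.4% against 35.9% over all tested genes. Without BMC replicate 3, 6 rose, and without BMC replicate 1, 2 fell. Of matrix proteases and their inhibitors 6 of 8 rose and 0 fell by edgeR, with 15 further members below the filter; 1 fell without control replicate 1. Plaur, the urokinase receptor, rose 2.33-fold from 16 ± 1.68 to 35.8 ± 4.81 FPKM, and its ligand Plau rose to 30.5 FPKM, a call lost with limma on log2(FPKM + 0.1). The tetraspanin Cd9 rose 2.33-fold from 123 ± 7.79 to 273 ± 17.4 FPKM. Over 12 tetraspanins 4 rose and 3 fell. Focal adhesion and podosome genes rose in 6 and fell in 4 of 24 cases, with the adaptor Lims1 1.5-fold and the actin regulator Vasp 1.43-fold higher and the crosslinker Actn1 1.5-fold lower. Of 11 semaphorins, plexins and neuropilins 2 rose and 4 fell, with 1 rise without control replicate 2 or BMC replicate 3 and 4 without BMC replicate 1. Of the YAP and TAZ related genes, parts or targets of mechanical signalling in adherent cells, 12 of 16 were below the filter. Yap1 and Wwtr1, which encode YAP and TAZ, and Ccn1, Ccn2 and Ankrd1 had 0 counts in every control and BMC library. By edgeR 0 of the 4 tested were called, and 1 was lower without BMC replicate 1. The 4 tested genes thus say little about that pathway.

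The listed genes of the interferon response and of MHC class I presentation were called only in the lower direction by edgeR with no library left out. Ifitm3, the restrictor of virus entry that was called higher as given above, is not in the interferon list. Of 25 tested interferon-stimulated genes 8 fell and 0 rose by edgeR, so that 32% were lower against 18.7% of all tested genes and fewer were called in all than the 35.9% of the background, with a median log2 change of -0.24, and 4 fell without control replicate 2 or without BMC replicate 3. Ifit2, an antiviral RNA-binding protein, was at 2.55, 2.81 and 2.16 FPKM in the controls and at 0.95, 0.87 and 0.52 FPKM in BMC, 3.07-fold lower (edgeR adjusted p = 7.32e-05). Oas3, an enzyme that answers double-stranded RNA, fell 1.69-fold. Of 20 tested MHC class I genes 6 fell and 0 rose by edgeR. That put 30% lower against 18.7% of all tested genes, with fewer called in all than the 35.9% of the background. In the controls the list summed to 1670, 1730 and 1710 FPKM. In BMC it summed to 1740, 1730 and 1720 FPKM, and the groups overlapped. Tap1, which carries peptides to MHC class I, fell 2.37-fold from 3.08 ± 0.240 to 1.24 ± 0.446 FPKM, and the immunoproteasome subunits Psmb8 and Psmb9 fell 1.49-fold and 1.95-fold. Without BMC replicate 1, 2 members of this list were called higher. In the MHC class II list 1 of 5 rose and 1 fell. The rise, in the invariant chain Cd74 (1.17-fold), was lost without control replicate 1 or 2 or BMC replicate 1 or 2, and 2 fell without control replicate 1 or BMC replicate 1. The sensors of nucleic acids and inflammasomes were mixed, with 8 of 18 higher and 5 lower, and 5 higher without BMC replicate 3. Nlrp3, the inflammasome sensor, was 2.19-fold higher (22 ± 0.881 FPKM in the controls, 46 ± 1.31 in BMC, edgeR adjusted p = 1.89e-09) and Sting1 rose 1.32-fold, while Cgas, which makes the ligand of Sting1, fell 1.28-fold.

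Genes of DNA repair and the cell cycle fell in most of the cases tested. Of 32 genes of homologous recombination and the Fanconi pathway, which mend breaks and crosslinks with a sister copy, 26 fell and 0 rose by edgeR, and the median log2 change was -0.82. Brca1, an organiser of break repair, was at 8.36, 8.25 and 7.41 FPKM in the controls and at 3.21, 3.06 and 2.46 FPKM in BMC, 2.63-fold lower (edgeR adjusted p = 2.29e-08). No BMC library of it reached a control. Rad54l, a translocase of recombination, fell 2.78-fold from 11.6 ± 0.385 FPKM. The summed level of the list was 205, 212 and 192 FPKM in the controls and 124, 124 and 116 FPKM in BMC.

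Checkpoint and mismatch repair genes fell in 23 of 31 cases, with a median log2 change of -0.60. Clspn, the adaptor of the replication checkpoint, fell 2.46-fold. Msh6, a mismatch sensor, was at 43 ± 1.5 FPKM in the controls and 20.6 ± 0.866 FPKM in BMC, 1.99-fold lower (edgeR adjusted p = 3.64e-09). The 2 members called higher, Polb and Rad17, were not called without control replicate 1, control replicate 3 or BMC replicate 2. Genes of the mitotic spindle and kinetochore fell in 35 of 43 cases and rose in 0 by edgeR, with a smaller median of -0.43. Bub1b, of the spindle checkpoint, fell 1.57-fold from 55.7 ± 2.04 to 34 ± 1.65 FPKM and the mitotic kinase Aurkb 1.53-fold. Cohesin and condensin genes fell in 17 of 23 cases with a median of -0.39. Esco2, which locks cohesin during replication, fell 1.93-fold, while Wapl, which releases cohesin, rose 1.26-fold and Esco1, a relative of Esco2, also rose.

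The regulators of S phase entry and the supply of its building blocks moved the same way. In the list of G1 cyclins, CDKs and inhibitors, with the E2F and RB families, 16 of 32 fell and 4 rose. E2f1 was at 15.0, 15.8 and 17.2 FPKM in the controls and at 5.60, 5.80 and 5.53 FPKM in BMC, 2.70-fold lower (edgeR adjusted p = 8.94e-08). Ccne2, a cyclin of S phase entry, fell 1.91-fold. The inhibitor Cdkn1a rose 1.73-fold from 33.7 ± 2.73 to 55.9 ± 4.49 FPKM, the cyclin Ccnd2 rose 2.12-fold, and the inhibitors Cdkn1b and Cdkn2d were the other members that rose. Cdkn1b and Cdkn2d lost their call without control replicate 2, as they did singly in other omissions. Of the genes of purine and pyrimidine synthesis 17 of 27 fell and 0 rose by edgeR, with 2 called higher without control replicate 3. Rrm2, the ribonucleotide reductase subunit that limits deoxynucleotide supply, was at 97.9, 109 and 103 FPKM in the controls and at 50.4, 46.8 and 37.3 FPKM in BMC, 2.21-fold lower (edgeR adjusted p = 2.04e-07), and the thymidine kinase Tk1 fell 2.11-fold. Histone chaperones and linker histones fell in 11 of 21 cases, with Chaf1b, of the assembly factor at replication forks, 2.67-fold lower. Among Polycomb and DNA methylation genes 9 of 25 fell and 5 rose, or 3 without control replicate 1, control replicate 3 or BMC replicate 2. Ezh2, the H3K27 methyltransferase, fell 1.6-fold from 17.1 ± 0.801 FPKM, while Kdm6b, which removes that mark, rose 2.61-fold from 3.33 ± 0.329 to 8.28 ± 0.740 FPKM.

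Histone deacetylases and sirtuins fell in 5 and rose in 1 of 18 cases, a called share of 33.3% against 35.9% over all tested genes. Hdac9, a class II deacetylase, fell 2.01-fold from 4.54 ± 0.28 to 2.16 ± 0.159 FPKM, and Hdac5 1.76-fold. The 1 rise, in Hdac1, was lost without control replicate 1, 2 or 3 or BMC replicate 1 or 2. SR and hnRNP splicing factors were called in 7 of 30 cases, 5 higher and 2 lower, and all but Tra2a and Hnrnpr among those named by rule lost their call when some library was left out. That list had 1 rise without BMC replicate 3, 3 rises and 1 fall without control replicate 1 or 2, and 1 fall without BMC replicate 2, and its median of 0.05 was -0.01 with another scaling.

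Genes of cell survival and death were nearly balanced, with 8 of 26 BCL2 family and caspase genes higher and 7 lower. Mcl1, which protects mitochondria from permeabilisation, was at 231 ± 3.23 FPKM in the controls and 330 ± 12.5 FPKM in BMC, 1.49-fold higher (edgeR adjusted p = 1.92e-07). Pmaip1, the pro-death protein Noxa that binds Mcl1, rose 2.37-fold to 47.8 ± 13.3 FPKM. The Bcl2a1 copies Bcl2a1b and Bcl2a1d were called 2.07-fold and 2.19-fold higher, but these are near-identical genes among which reads can be split. The caspase Casp2 was 1.97-fold lower.

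Promoters with an E2F type motif are shown because E2F factors are known, as background, to control genes of DNA synthesis. The motif searched was TTTCCCGC or TTTGGCGC on either strand in the same RefSeq windows. Among the 14 largest falls, the windows of 11 were read singly, with windows of 1 chromosome left out as above. Cdc6, a loader of the replicative helicase, held the motif 138 bases before the start on chromosome 11, + strand. Dtl, which marks replication factors for degradation, held it 8 bases before the start on chromosome 1, - strand. Pold1, the catalytic subunit of DNA polymerase delta, held it after its start. Both are printed as the 250 bases before the start, 5′ to 3′ on the gene's strand with the match in capitals, from chr11:98907901-98908150 and chr1:191575545-191575794 of GRCm38.p6.
Cdc6: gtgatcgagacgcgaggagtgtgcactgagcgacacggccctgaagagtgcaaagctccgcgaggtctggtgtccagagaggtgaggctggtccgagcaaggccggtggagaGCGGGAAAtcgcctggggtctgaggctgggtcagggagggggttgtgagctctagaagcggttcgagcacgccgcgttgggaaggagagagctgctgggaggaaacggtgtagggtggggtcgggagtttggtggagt
Dtl: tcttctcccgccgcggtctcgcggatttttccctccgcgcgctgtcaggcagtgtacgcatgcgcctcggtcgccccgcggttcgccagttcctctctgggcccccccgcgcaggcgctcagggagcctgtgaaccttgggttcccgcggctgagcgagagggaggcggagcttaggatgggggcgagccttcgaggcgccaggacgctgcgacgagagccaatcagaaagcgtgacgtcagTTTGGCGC
Dtl was at 9.99, 10.5 and 9.80 FPKM in the controls and at 3.53, 3.71 and 2.91 FPKM in BMC, 2.85-fold lower (edgeR adjusted p = 3.20e-09). The motif was held by 320 of the 8376 genes with a window (3.82%), by 23 of 168 such genes called at least 2-fold lower (13.7%) and by 2 of 120 called at least 2-fold higher (1.67%). Uhrf1 held no E2F type match in its windows and 1 NF-kB type match, which makes it the 1 gene among those at least 2-fold lower that held the latter.

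**Figure D3:**
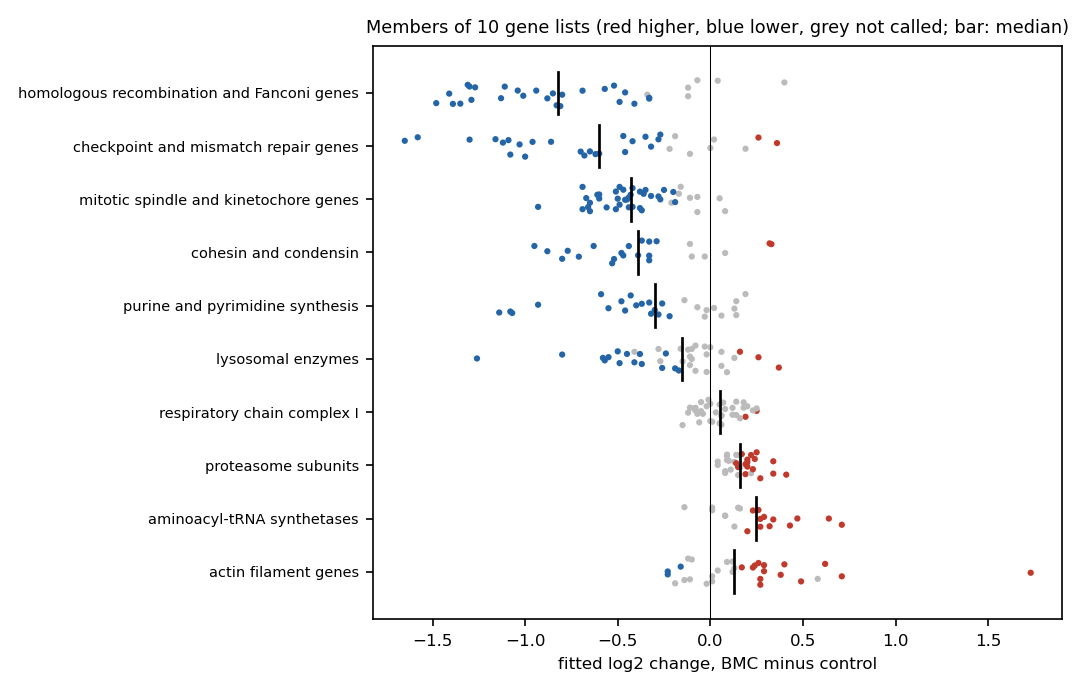
Fitted log2 change, BMC minus control, on the x axis for every tested member of 10 lists, 1 row a list; red points were called higher, blue called lower, grey not called, the black bar is the list's median, and the vertical scatter within a row has no meaning. The repair rows lie to the left with medians of -0.82 and -0.60, the mitotic row at -0.43, complex I around 0.05 and the proteasome at 0.16.

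Few genes of the respiratory chain were called. Of 36 genes of respiratory chain complex I 2 were called higher and 0 lower by edgeR, and of 35 genes of ATP synthase and complexes III and IV 1 was called in each direction, against 35.9% called over all genes. In the latter list 0 to 4 were higher and 0 or 1 lower when single libraries were left out, with 4 higher without control replicate 3. The 2 complex I calls were lost without control replicate 1, control replicate 2 or BMC replicate 3, and its median log2 change of 0.05 was between -0.01 and 0.05 over the other scalings. The summed complex I level was 1820, 1790 and 1910 FPKM in the controls and 1860, 1760 and 1900 FPKM in BMC, so the groups overlapped. Of 25 genes of the tricarboxylic acid cycle 3 rose and 4 fell, with 2 falls without control replicate 1, BMC replicate 1 or BMC replicate 2 and 5 rises without control replicate 3. Idh1, the cytosolic isocitrate dehydrogenase, rose 1.54-fold to 156 ± 38.2 FPKM, a call lost with limma on log2(FPKM + 1) and on log2(FPKM + 0.1) (limma adjusted p = 0.0604 and 0.0606), and its mitochondrial relative Idh2 fell 1.25-fold. In fatty acid oxidation 2 of 19 rose and 6 fell, with 1 rise without control replicate 1 or 3 or BMC replicate 1 or 3. Cpt1a, which admits fatty acids to mitochondria, fell 1.98-fold from 6.30 ± 0.256 to 3.05 ± 0.280 FPKM (edgeR adjusted p = 2.84e-07), while Acsl4, which activates polyunsaturated fatty acids, rose 1.99-fold to 62 ± 2.34 FPKM.

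Lipid synthesis, sugar and folate pathways showed small changes in named enzymes. Cholesterol synthesis genes rose in 6 and fell in 4 of 25 cases, with Cyp51, a demethylase of the pathway, 1.25-fold higher and Acat2, of its first step, 1.26-fold lower. In fatty acid synthesis and desaturation 1 of 22 rose and 6 fell, with 3 falls without BMC replicate 3 and 2 rises without control replicate 3. The called shares were 40.0% for cholesterol synthesis and 31.8% for fatty acid synthesis and desaturation, near the 35.9% over all tested genes. In the pentose phosphate pathway 4 of 10 fell and 0 rose by edgeR, with 2 falls without BMC replicate 2. Prps2, which makes the sugar donor of nucleotides, fell 1.55-fold from 28.2 ± 2.15 to 17.5 ± 1.31 FPKM. Serine and one-carbon genes rose in 5 and fell in 5 of 15 cases. Mthfd2, a mitochondrial folate enzyme, rose 1.46-fold from 32.3 ± 1.5 to 45.1 ± 3.03 FPKM, while Tyms, the thymidylate synthase, fell 1.5-fold.

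Genes of redox defence, metals and the endoplasmic reticulum were called higher more often than lower. So were all tested genes at 50 FPKM or more (29.7% higher, 11.2% lower), and the lists were not matched for level. Summed levels of the groups overlapped for the iron and the unfolded protein response lists, and lay higher in BMC for the NRF2 list. Of 29 NRF2 and glutathione genes 8 rose and 6 fell, with 1 to 3 falls without control replicate 1, 2 or 3 or BMC replicate 2 or 3. Txnrd1, a thioredoxin reductase, rose 1.46-fold from 80.9 ± 1.16 to 113 ± 7.57 FPKM, and Hmox1, which breaks down heme, 1.46-fold. In the iron and metallothionein list 6 of 18 rose and 2 fell. Cp, the ferroxidase ceruloplasmin, rose 1.83-fold, and Steap3, a ferrireductase of endosomes, fell 2.02-fold from 3.8 ± 0.246 FPKM. Of 28 genes of the unfolded protein response 8 rose and 2 fell, 35.7% called against 35.9% over all tested genes, with Herpud1, of protein disposal, 1.32-fold higher and the cochaperone Sdf2l1 1.39-fold lower, from 182 ± 7.47 to 125 ± 10.2 FPKM.

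Among genes of protein synthesis, turnover and folding, rises were more frequent than falls. Of the 20 aminoacyl-tRNA synthetases, which load tRNAs with amino acids, 12 rose and 0 fell by edgeR, with a median log2 change of 0.24. Nars was at 91.6, 90.1 and 88.2 FPKM in the controls and at 133, 133 and 136 FPKM in BMC, 1.56-fold higher (edgeR adjusted p = 1.30e-07), and Cars rose 1.63-fold. Amino acid transporters rose in 8 and fell in 5 of 20 cases, with 2 falls without control replicate 2 and 3 without BMC replicate 2 or 3. Slc7a11, the cystine carrier, was at 2.45, 2.11 and 2.33 FPKM in the controls and at 5.91, 6.60 and 6.31 FPKM in BMC, 2.86-fold higher (edgeR adjusted p = 3.88e-09). Of 31 proteasome subunits 16 rose and 0 fell by edgeR, with a median of 0.16. Psmd11, of the regulatory lid, rose 1.33-fold from 21.6 ± 0.115 to 27.5 ± 1.17 FPKM. The count of rises was 10 without control replicate 1 and 7 to 15 with the other scalings. Heat shock proteins and cochaperones rose in 14 of 19 cases and fell in 0 by edgeR, with 7 to 14 rises over the other scalings, 7 without control replicate 1, 9 without BMC replicate 2 and 8 without BMC replicate 3, the last with 1 fall. Hspa1b, a stress-induced chaperone with a near-identical neighbour gene, was at 0.80, 0.28 and 0.73 FPKM in the controls and at 1.63, 3.16 and 5.89 FPKM in BMC, 6.26-fold higher (edgeR adjusted p = 0.000774).

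Lysosomal enzymes fell more often than they rose, and the list of lysosomal membrane and proton pump genes rose more often than it fell. Of 38 lysosomal enzymes 15 fell and 3 rose, and their summed level was 3120, 3130 and 3210 FPKM in the controls and 2760, 2580 and 2520 FPKM in BMC. Sgsh, a heparan sulfatase, was at 7.70, 6.99 and 7.19 FPKM in the controls and at 2.96, 3.04 and 2.75 FPKM in BMC, 2.39-fold lower (edgeR adjusted p = 1.57e-07), and the acid lipase Lipa fell 1.36-fold. Ctsl, a cathepsin, rose 1.29-fold; 1 member was called higher without control replicate 2 or without BMC replicate 3. Of 25 genes of the lysosomal membrane and the proton pump 9 rose and 3 fell. Atp6ap2, an accessory subunit of the pump, was at 58.9 ± 1.1 FPKM in the controls and 102 ± 5.7 FPKM in BMC, 1.81-fold higher (edgeR adjusted p = 1.18e-06), and the pump subunit Atp6v0a1 rose 1.66-fold, while the cholesterol exporter Npc1 fell 1.61-fold. In autophagy 13 of 36 genes rose and 2 fell, with 8 to 12 rises and 3 or 4 falls over the other scalings, and 1 fall without control replicate 3 or BMC replicate 2.

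Transcription factors of the MiT family, which bind the shared motif of lysosomal and autophagy genes, were themselves divided. Mitf was at 19.5, 20.3 and 16.4 FPKM in the controls and at 34.0, 37.1 and 36.3 FPKM in BMC, 2.00-fold higher (edgeR adjusted p = 5.66e-08). Tfe3 rose 1.80-fold from 12.3 ± 0.686 to 21.1 ± 1.47 FPKM. Tfeb was at 6, 6.51 and 7.25 FPKM in the controls and at 3.03, 2.50 and 2.20 FPKM in BMC, 2.44-fold lower (edgeR adjusted p = 1.10e-05). In all 3 genes the groups were apart. The cargo receptor Sqstm1, which links ubiquitin to autophagosomes, rose 1.93-fold to 237 ± 7.51 FPKM.

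**Figure D4:**
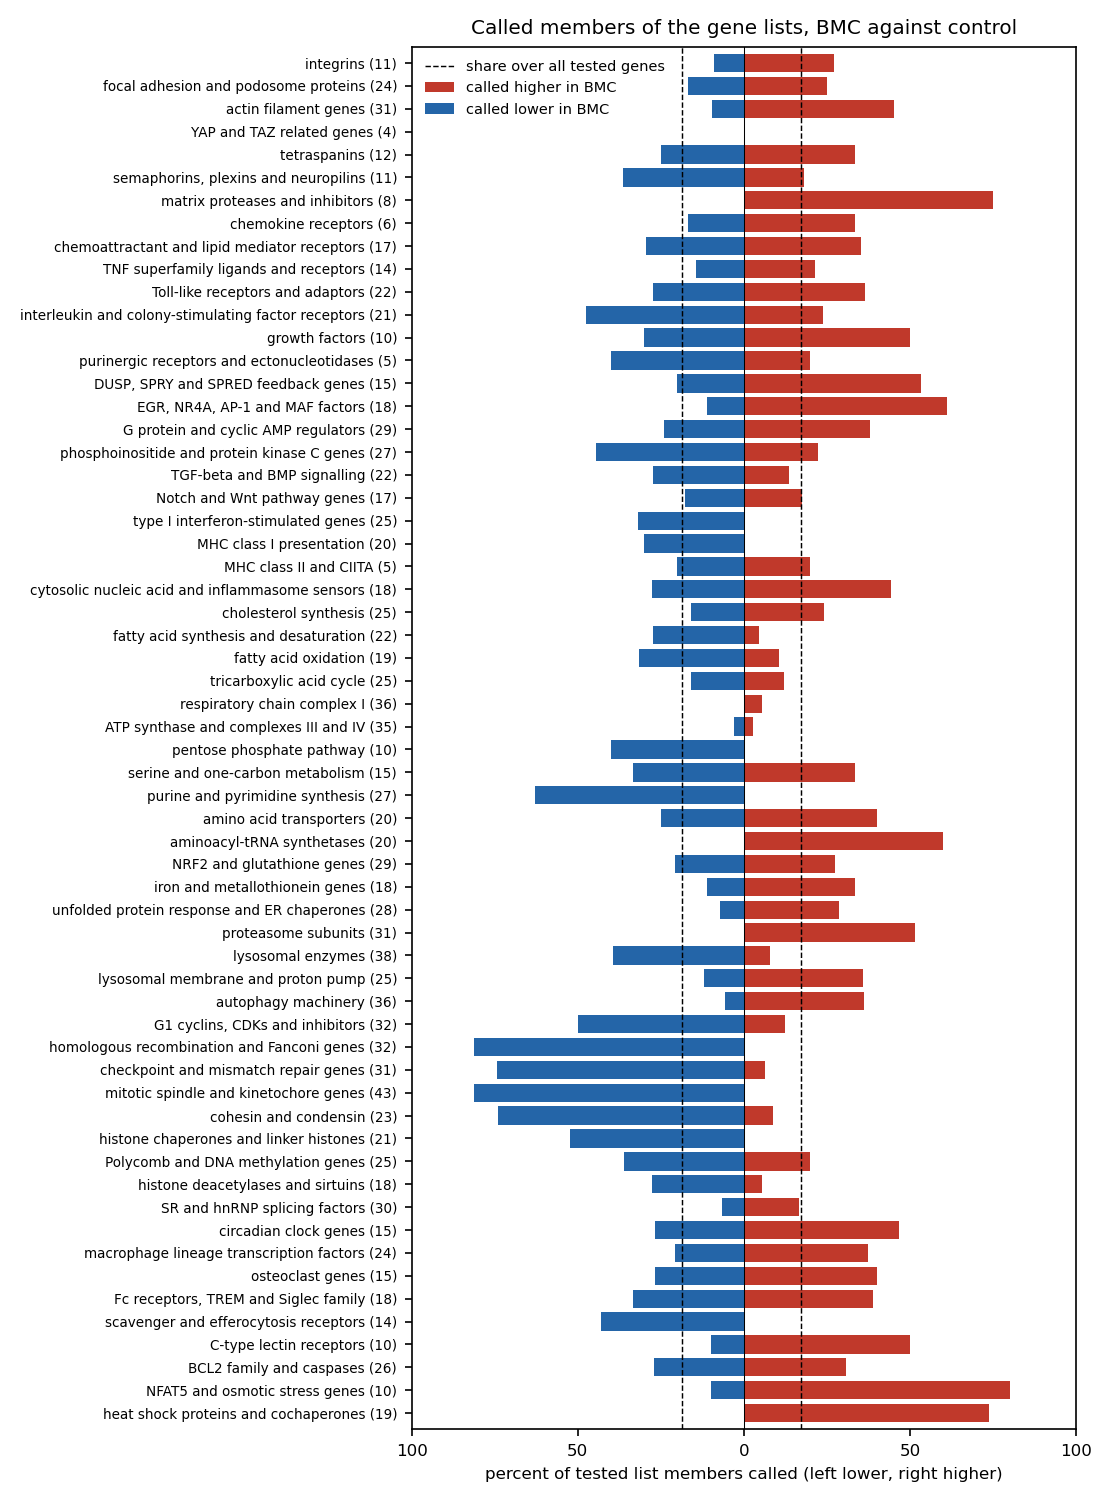
Percent of the tested members called lower (blue, to the left) and higher (red, to the right) in each of 60 of the lists, with the number tested in parentheses; dashed lines mark the shares over all tested genes, 18.7% lower and 17.1% higher. The repair, checkpoint, mitotic and cohesin bars reach farthest to the left, and the osmotic, matrix protease and heat shock bars farthest to the right.

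Genes of osmotic stress gave the last pattern, and here the BMC libraries differed among themselves. In the list of NFAT5 and osmotic stress genes 8 of 10 tested rose and 1 fell, with a median log2 change of 0.90 that ranged from 0.57 to 1.15 when single libraries were left out. The summed level was 314, 273 and 303 FPKM in the controls and 322, 426 and 552 FPKM in BMC, so that BMC replicate 1 lay just above the controls. Slc6a12, a carrier of the osmolyte betaine, was at 78.9, 55.1 and 82.8 FPKM in the controls and at 91.9, 130 and 188 FPKM in BMC, 1.98-fold higher (edgeR adjusted p = 0.00289). Without BMC replicate 3 its log2 change was 0.68 in place of 0.99 and still called. Ranbp3l, which carries SMAD proteins out of the nucleus, was at 2.32, 0.19 and 2.05 FPKM in the controls and at 2.96, 10.0 and 25.8 FPKM in BMC, with a log2 change of 3.19 ± 0.76 (SE; edgeR adjusted p = 0.00362). Without BMC replicate 3 that change was 2.20 (edgeR adjusted p = 0.0171), and the call was lost with limma on log2(FPKM + 1). Nfat5 itself, the transcription factor of the osmotic response, rose 1.41-fold from 21.1 ± 2.34 to 28.4 ± 3.85 FPKM. Slc5a3, the inositol carrier, was not called at 12.3 ± 3.21 and 20.3 ± 10.1 FPKM (edgeR adjusted p = 0.0666), its groups overlapping. The fall was in Slc6a6, a taurine carrier, at a log2 change of -0.18, and that call was lost without control replicate 1, 2 or 3 or BMC replicate 1.

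Atp1b3, a beta subunit of the sodium pump, changed with the groups apart. It was at 285, 247 and 293 FPKM in the controls and at 399, 463 and 502 FPKM in BMC, 1.73-fold higher (edgeR adjusted p = 1.19e-05).

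**Figure D5:**
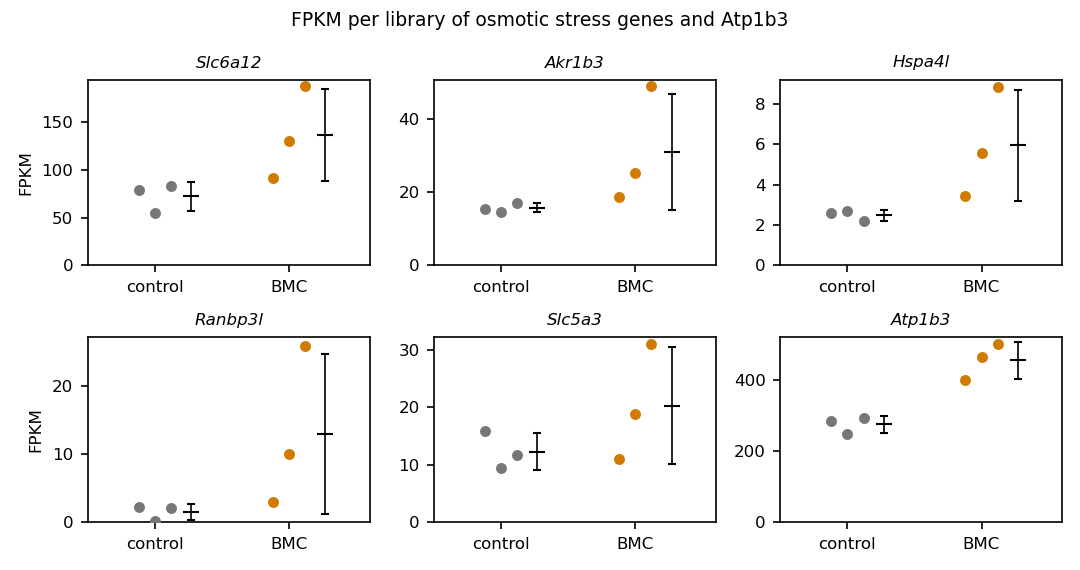
FPKM on the y axis, from 0, of 5 osmotic stress genes and Atp1b3 in the 3 control and 3 BMC libraries, with points for libraries and a black bar with whiskers for the mean ± SD of 3. In the panels of Slc6a12, Ranbp3l and Slc5a3 the BMC points spread widely and Slc5a3 overlaps the controls, while Atp1b3 lies above every control; Akr1b3 and Slc5a3 are shown as further members of the list.

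With ultrasound added to the membrane, levels of the members above stayed on the BMC side of the controls in the examples that follow, which are given side by side because both comparisons share the same controls. Scimp was at 3.03 ± 0.404 FPKM in the controls, 14.9 ± 1.20 in BMC and 16.5 ± 1.77 in BMC+LIPUS (SD, n = 3). Brca1 was at 8.01 ± 0.52, 2.91 ± 0.397 and 2.33 ± 0.253 FPKM in the same order, and Atp1b3 at 275 ± 24.5, 455 ± 52.0 and 470 ± 51.4 FPKM. Ranbp3l was at 15.7, 4.46 and 27.1 FPKM in the 3 BMC+LIPUS libraries, which were thus also far apart.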

How the data were processed

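Polyadenylated RNA of 3 control, 3 BMC and 3 BMC+LIPUS libraries was sequenced as read pairs from a stranded kit, per the labels' protocols. Per the submitters' processing notes, the authors worked on GRCm39 with cutadapt 1.9.1, HTSeq 0.6.1, HISAT2 2.0.1 and DESeq2. Whether counting used strand, and with which annotation or filters, is not given in the sources used here, so antisense and overlapping partners cannot be told apart, and near-identical copies are uncertain. The deposited counts are whole reads per gene, not normalized by the authors. The deposited FPKM values were rounded by the authors to hundredths. Of 56691 lines, 2639 carry no gene name; these held 0.0889% to 0.0976% of counts and entered neither totals nor tests. Another 6 columns of 3 other libraries, which no label names, were not used.

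Library sizes were totals over named genes, 12675541 to 16574453 counts, which limit the precision of low genes. Genes averaging 0.5 FPKM or more over the 9 libraries were tested with edgeR 4.0.16 (TMM factors, glmQLFit and glmQLFTest, group means over all 9 libraries) in R 4.3.3, with Benjamini-Hochberg adjustment over 12030 genes and calls at an adjusted p under 0.05. SE, the standard error of log2 changes, was derived from the F statistic. On simulated counts with 200 changed genes, the step on 12030 genes recovered 61.2%, 89.6% and 92.4% of changes of 1.5-fold, 2-fold and 4-fold in BMC against control. It called 0.093% of the unchanged genes. In the data 4314 genes were called, far more than were changed in the simulation, so these shares may differ there. Alternatives were limma 3.58.1 on log2(FPKM + 1) and log2(FPKM + 0.1), limma-voom, DESeq2 1.42.0, other scalings and filters, and libraries left out.

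The lists hold 1575 symbols, 1572 found in the table, 32 of them through a synonym. The genes, lists and rules were chosen with earlier results of these data known. Named genes were the 14 largest rises and falls in log2 change and the 8 in FPKM, among called genes of at least 5 FPKM with groups apart and without predicted names, up to 6 called members of each list with the smallest p, and members that moved against their list; others are named as chosen after their values were seen or as uncalled examples. Biotypes, promoters and synonyms came from RefSeq tables of GRCm38.p6, another build than that of the files, so no gene coordinates are given beyond those windows. Some genes and 1 list are not reported here.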

Additional observations from a re-analysis of the deposited data

How the results depend on the processing

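Of 435 genes named by rule, 342 kept their call in every alternative in which they were tested, 93 lost it in at least 1 and 0 reversed. Genes called higher were 1330 with limma on log2(FPKM + 1) and 1330 with log2(FPKM + 0.1), against 2062. Genes called at least 2-fold were 195 with limma on log2(FPKM + 1), where the pseudocount shrinks changes of low genes, and 160 among the genes at 5 FPKM or more, against 423. At a minimum of 5 counts 1 gene was seen in BMC only, against 0. Leaving out single libraries gave 3474 to 4089 called genes, 1600 to 1924 higher, 1833 to 2165 lower, 366 to 488 at least 2-fold, and 558 to 642 list members against 658; where a group was left with 2 libraries the spread was shared over all groups. With the replicate number as a block 4497 genes were called. Same-numbered control and BMC libraries deviated together with correlations of -0.057, 0.040 and 0.079, so no clear shared shift was seen. The labels name no pairing, and these values cannot show whether same-numbered libraries were handled together. Levels under 2 FPKM had a median SE of the log2 change of 0.28, against 0.06 at 50 FPKM or more, so changes of low genes were less often detectable at this depth.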
